A study of Mus musculus with 10 samples.

Results

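Respiratory complexes III and IV, the carrier cytochrome c that links them, and the ATP synthase were followed in 10 single neurons of the mouse nucleus of the solitary tract, the brainstem relay for signals from the gut, heart and other viscera. The genes were all rows of the count tables whose Ensembl identifier maps to a protein-coding mouse symbol that starts with Uqcr, Cox4, Cox5, Cox6, Cox7, Cox8 or Atp5, or equals Cyc1 or Cycs. This gave 45 of 25006 genes, of which 9 code for complex III, 1 for cytochrome c, 18 for complex IV and 17 for the ATP synthase. The rule also takes in Cox7a2l, which joins complexes III and IV into supercomplexes, and Atp5s, coupling factor B, neither of which is a core subunit. The neurons were patched in acute slices and their cytoplasmic and nuclear RNA was sequenced, with 1 library per neuron. All came from 3-month-old C57BL/6 mice of the genotype given as LepRb-Cre; Halo-eYFP, in which a Cre under the control of the leptin receptor gene turns on a yellow fluorescent protein, so the reporter records present or past expression of that gene. The labels divide them by firing property into 5 type 2 neurons (6-2, 10-1, 10-3, 9-2 and 9-4) and 5 type 1 neurons (1-1, 1-2, 4-3, 8-2 and 9-1), and define neither the firing types nor the numbers.

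Complex III passes electrons from ubiquinol to cytochrome c, cytochrome c carries them to complex IV, and complex IV gives them to oxygen. Complexes III and IV pump protons out of the mitochondrial matrix as they do so, and the ATP synthase lets the protons back in through a ring of subunit c and uses their flow to make ATP. Neurons depend on this pathway for the energy of ion pumping and synaptic transmission. A few subunits of complexes III, IV and the ATP synthase are encoded in mitochondrial DNA. The 13 mitochondrially encoded genes of the tables had 0 counts in total, so all values below are for nuclear genes.

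No animal or slice is named in the labels, so each firing type counts as 1 sample, and no test between types was made. Where a mean is given with an SD, the SD is over the 5 neurons of that firing type and describes cell-to-cell spread. Levels are in CPM (counts divided by the library's total, times 1000000). Differences between groups are differences of mean log2(CPM + 1), given as type 2 minus type 1. A value of 1 is about 2-fold between levels averaged on the log scale, except for the lowest genes, and not between mean CPM. Single neurons at or near 0 CPM can make it larger than the mean CPM would give, as for Ndufv1 of complex I (2.23, with means of 404 CPM in type 2 and 206 CPM in type 1). A gene was called measured at a mean of 10 CPM or more over the 10 neurons, which 9212 genes reached, and detected in a neuron from 10 CPM and 3 counts upward. Gene counts per library ranged from 9796799 in 4-3 to 41844825 in 8-2 and fell into 2 depth sets. The 6 libraries above 20000000 counts (the higher depth set) were 10-1, 10-3, 9-2 and 9-4 of type 2 with 8-2 and 9-1 of type 1, and the 4 below it (the lower depth set) were 6-2 of type 2 with 1-1, 1-2 and 4-3 of type 1. Type and depth are thus partly confounded. The neuronal gene Snap25 was detected in every library (2797 ± 303 CPM in type 2, 2065 ± 535 CPM in type 1), and the leptin receptor gene Lepr in 4 of 5 type 2 and 2 of 5 type 1 neurons.

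Several of the genes have near-identical copies elsewhere in the genome, most of them processed pseudogenes, and reads cannot always be assigned between a gene and such a copy. Of the 45 genes, 22 had at least 1 other annotated gene that matched 80% or more of their coding sequence at 90% identity or more. Together they had 66 copies, 62 of them annotated as pseudogenes. The copies' own counts are not analysed here. In addition, 8 of the 45 genes share exon bases with a neighbouring gene, among them Uqcrb (50 bases, Gm10767), Cox6a2 (70, Itgad), Atp5a1 (129, Haus1) and Cox4i1 (154, Emc8), and their values are uncertain because the treatment of strand in the counting is not stated in the sources used here. The coding sequence of Cox7c, a small complex IV subunit, shows how little there is to tell a gene from its copy. It is drawn from GENCODE M21 on GRCm38, where the gene spans chr13:86044816-86046904 on the minus strand in 189 coding bases without the stop codon. The copy Gm10012 (chr17:25901856-25902227, plus strand) is 98.9% identical, and the differences, G30C and G107A counted from the first base of the start codon of Cox7c, are in capitals.
Cox7c: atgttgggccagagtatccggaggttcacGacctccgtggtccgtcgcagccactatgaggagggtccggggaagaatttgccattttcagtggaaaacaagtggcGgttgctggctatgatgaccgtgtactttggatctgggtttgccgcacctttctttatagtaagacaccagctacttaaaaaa
Gm10012: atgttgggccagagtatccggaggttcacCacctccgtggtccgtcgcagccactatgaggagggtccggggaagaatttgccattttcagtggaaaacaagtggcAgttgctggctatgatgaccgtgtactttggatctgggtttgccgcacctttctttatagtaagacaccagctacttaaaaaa
A further copy, Gm12338 (chr11:75599763-75599954, minus strand), is identical to Cox7c over all 189 coding bases.

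Most of the respiratory genes were present in every neuron. Of the 45, 38 were measured, and 34 of these were detected in all 10 neurons. The 4 others were Cycs, Cox7c, Atp5l and Atp5g2. Per kilobase of exon, Cox8a was highest at 868 CPM per kb (mean of 10 neurons), followed by Cox6b1 at 759, Cox4i1 at 558 and Atp5a1 at 533 CPM per kb, and the median over the measured genes was 173 CPM per kb. Together the 45 genes held between 0.956% and 2.32% of a library's counts. Their levels were also steadier than those of other genes: the SD of log2(CPM + 1) over the 10 neurons had a median of 0.72 over the 38 measured genes and of 2.54 over all 9212 measured genes, which are on the whole less abundant (median of mean levels 289 against 51.3 CPM).

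**Figure D1:**
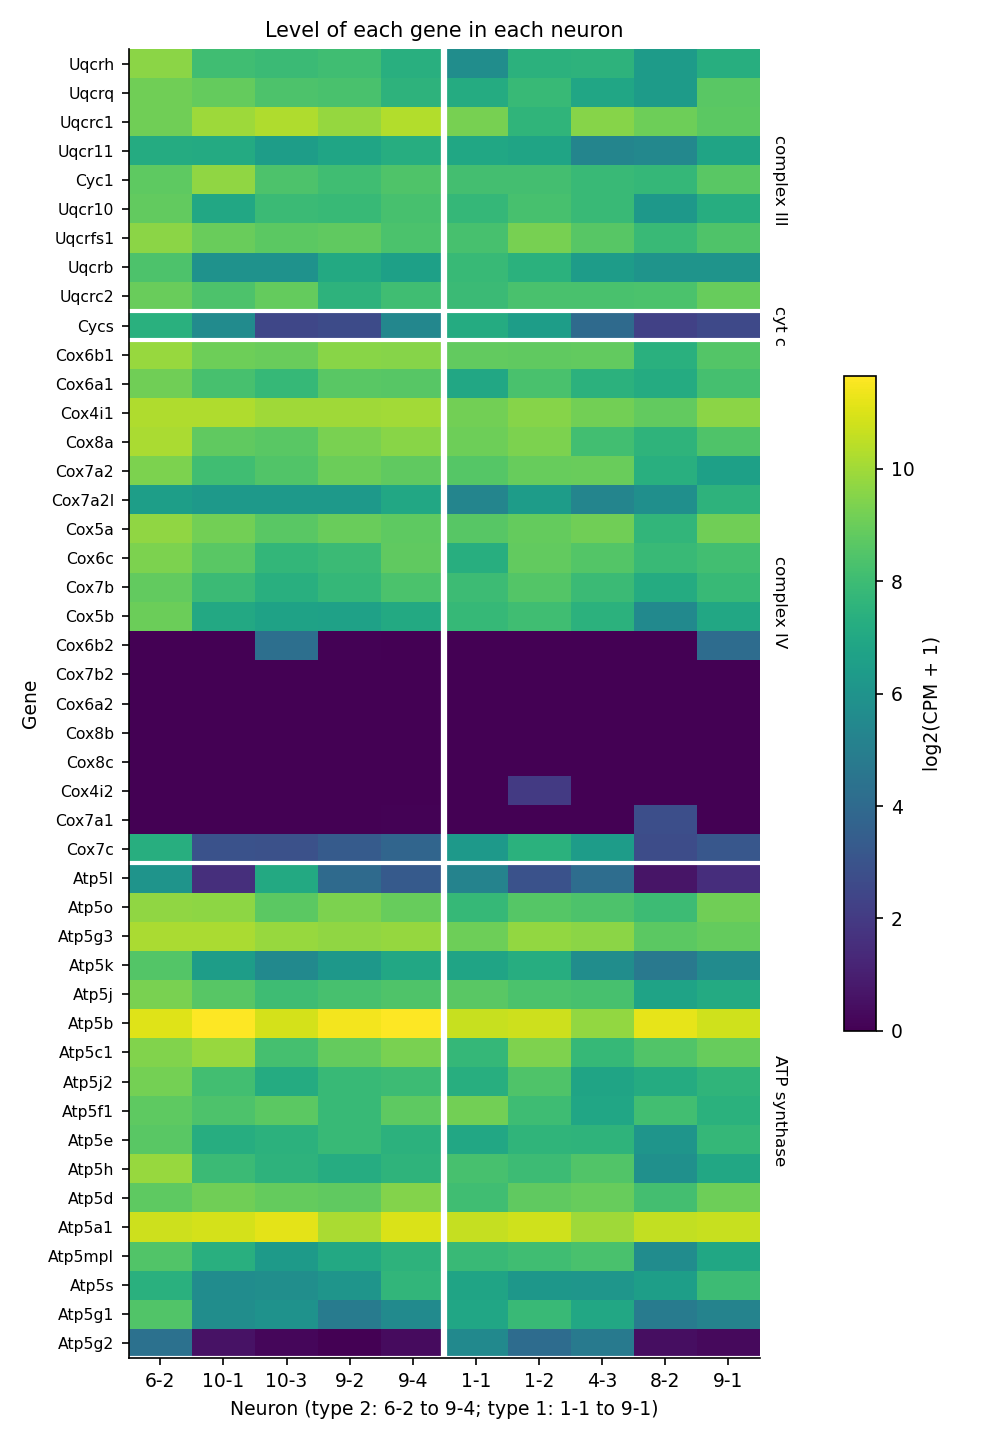
Level of each of the 45 genes (rows, grouped by complex) in each neuron (columns, type 2 left and type 1 right), as log2(CPM + 1) in colour. The dark rows within complex IV are its 7 tissue isoforms, and Cycs, Cox7c, Atp5l, Atp5g1 and Atp5g2 vary more between columns than their neighbours.

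The 7 genes under 10 CPM were the tissue isoforms of complex IV. Cox6a2, Cox7a1 and Cox8b are the isoforms of heart and skeletal muscle, Cox4i2 is the form best known from lung and from hypoxic cells, and Cox6b2, Cox7b2 and Cox8c are known from testis. Cox6a2, Cox7b2, Cox8b and Cox8c had 0 counts in all 10 neurons, which by 3 counts in the single library allows up to 0.306 CPM in the shallowest library. Cox6b2 had 18.1 CPM in 10-3 (type 2) and 16.2 CPM in 9-1 (type 1), and at most 0.0351 CPM in the other 8 neurons. Cox4i2 was present only in 1-2 (2.96 CPM, type 1). Cox7a1 had 0.0636 CPM in 9-4 (type 2) and 6.05 CPM in 8-2 (type 1). The ubiquitous partners of these genes, Cox4i1, Cox6a1, Cox6b1, Cox7a2, Cox7b and Cox8a, were detected in every neuron of both types.

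Over all measured genes of the complexes, respiratory transcripts were modestly higher in type 2 neurons. The summed level of the 45 genes was 23247 CPM in 6-2, 18339 in 10-1, 14853 in 10-3, 15118 in 9-2 and 17919 in 9-4 among type 2 neurons. Among type 1 neurons it was 12233 CPM in 1-1, 14953 in 1-2, 11242 in 4-3, 9556 in 8-2 and 12620 in 9-1. The types overlapped only through 1-2, the highest type 1 neuron, which stood just above 10-3, the lowest of type 2. The mean was 17895 ± 3384 CPM for type 2 neurons and 12121 ± 1977 CPM for type 1 neurons (SD, n = 5 each), a difference of 0.56 on the log2 scale.

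Each of the complexes shared in this. Complex III with cytochrome c summed to 3598 ± 733 CPM in type 2 neurons and 2288 ± 356 CPM in type 1 neurons, with no overlap between the types (2866 to 4758 CPM in type 2, 1673 to 2562 CPM in type 1). None of its 10 genes separated the types on its own. How often summed levels of other gene sets separate them was not tested. Complex IV summed to 4848 ± 1397 CPM in type 2 neurons and 3243 ± 938 CPM in type 1 neurons, and the ATP synthase to 9449 ± 1545 CPM in type 2 neurons and 6590 ± 958 CPM in type 1 neurons, both with overlap. Gene by gene, 33 of the 38 measured genes had the higher mean level in type 2 (background over all measured genes 56.4%, and 59.7% over the genes at 100 CPM or more). The median difference was 0.55 over the 38 genes, against 0.24 over all 9212. It was 0.52 over complex III and cytochrome c (10 of 10 genes higher), 0.41 over complex IV (10 of 11) and 0.57 over the ATP synthase (13 of 17).

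**Figure D2:**
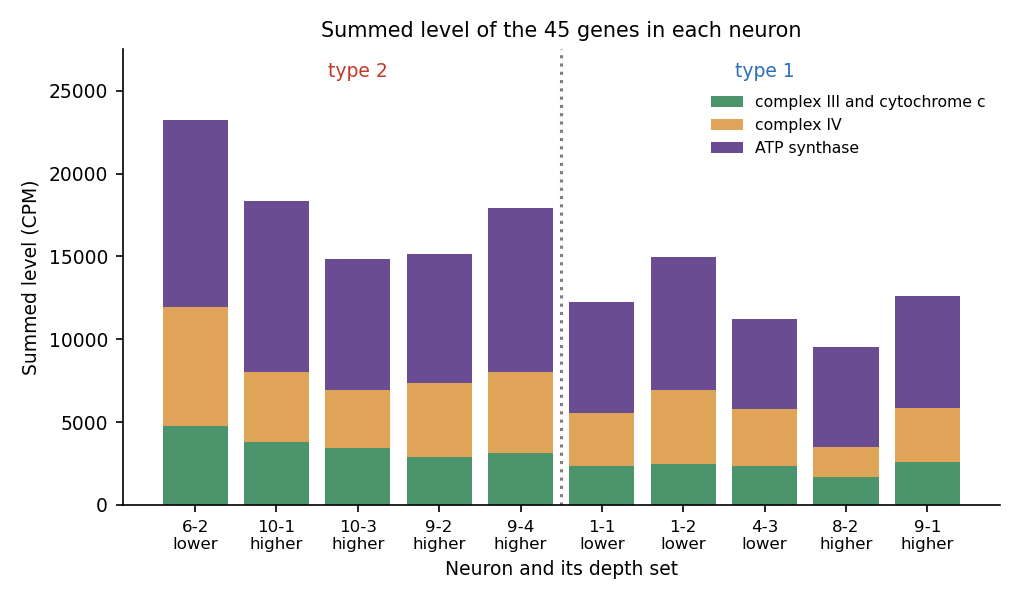
Summed level in CPM of complex III with cytochrome c, complex IV and ATP synthase genes in each neuron, stacked, with type 2 neurons left of type 1 neurons and the depth set of each library under its name. The type 2 bars run from 14853 to 23247 CPM and the type 1 bars from 9556 to 14953 CPM.

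These differences were small beside the spread between neurons, and 2 neurons at the ends bore much of them. For 23 of the 38 genes the difference between types was no larger than the SD of log2(CPM + 1) within a type. Neuron 6-2 (type 2) was the highest of all 10 for 24 of the 38 genes, and 8-2 (type 1) the lowest of all for 20. Without 8-2 the median difference was 0.37, against 0.36 over all measured genes, so the excess of the respiratory genes over other genes was 0.0067, compared with 0.31 over all 10 neurons. Without 6-2 the median was 0.36, against 0.20 over all measured genes. Within both depth sets at once, 34 of the 38 genes were higher in type 2 (background 32.9%, and 35.7% at 100 CPM or more). This count also rests on the same 2 neurons. The lower set has only 6-2 of type 2, and the higher set has only 8-2 and 9-1 of type 1. The median was 0.61 in the higher depth set (0.00 over all measured genes) and 0.94 in the lower (0.64 over all), where 6-2 is the only type 2 neuron. Among neurons with the first number 9 alone (9-2 and 9-4 of type 2, 9-1 of type 1) the median was 0.31, against 0.17 over all measured genes.

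Transcripts of some other cells also moved with type. From a list of 14 microglial genes, all 11 that were measured were on average higher in type 2 neurons (median difference 2.79), and 12 of the 14 were detected in 6-2 and in 9-4. Their summed level was 1809 CPM in 6-2, 4.23 in 10-1, 47.7 in 10-3, 524 in 9-2 and 1570 in 9-4 among type 2 neurons, and 0.0668 CPM in 1-1, 896 in 1-2, 0.306 in 4-3, 59.6 in 8-2 and 78.4 in 9-1 among type 1 neurons. Neuron 10-1, with the second highest summed respiratory level, was near 0 for microglial genes. Neurons 6-2 and 1-2, each the highest of its type for the summed respiratory level, were also the highest of their types for microglial genes. Over the 10 neurons, the mean log2 level of the measured respiratory genes and the microglial sum had a Pearson r of 0.36 (sum on a log2 scale). The Spearman rho was 0.41, both as a description. No correlation was computed for the summed respiratory level or for the astrocyte genes. Without 6-2, 9-2 and 9-4, the type 2 neurons with the most microglial transcripts, the median respiratory difference was 0.27 (0.08 over all measured genes). The summed level of 12 astrocyte genes was 2343 to 4437 CPM in type 2 and 590 to 1475 CPM in type 1 neurons, without overlap. Its lowest type 2 value, 2343 CPM, was that of 10-1. Of the 12 genes 4 were measured, 3 of them higher in type 2. Between 2 and 6 of the 12 were detected in a type 2 neuron, most in 6-2, and between 2 and 4 in a type 1 neuron. Most of the sum was Aldoc and Cst3, which were detected in every neuron. Sox9 reached 102 CPM, Gfap 56.1 CPM and Aldh1l1 51.0 CPM in type 2, against at most 1.85, 15.6 and 0.0239 CPM in type 1. Gfap and Aldh1l1 were each detected in only 1 type 2 neuron. The measured gene S100b went the other way (difference -2.22), with at most 10.1 CPM in type 2 and 73.9 CPM in type 1. Slc1a2 reached 20.7 CPM in type 2 and 30.6 CPM in type 1, while Slc1a3 was at 0 and Aqp4 at 0.445 CPM or less. Of 11 oligodendrocyte genes 3 were measured, 2 of them higher in type 2. The summed level of the 11 was instead lower in type 2, at 140 ± 72.9 CPM, than in type 1, at 278 ± 432 CPM, where 9-1 had 1045 CPM. Of 9 vascular genes none was measured. The part of other cells' RNA in the respiratory difference was not tested.

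In complex III, the genes furthest apart were Uqcrh, Uqcrq and Uqcrc1. Uqcrh (chr4:116066965-116075071, minus strand), the acidic hinge subunit next to cytochrome c1, had 793 CPM in 6-2, 269 in 10-1, 246.5 in 10-3, 267 in 9-2 and 160.1 in 9-4 among type 2 neurons, against 52.1 CPM in 1-1, 177 in 1-2, 182 in 4-3, 83.7 in 8-2 and 158 in 9-1 among type 1 neurons. Only 9-4 lay within the range of type 1, and the difference was 1.32. With the reads of a type pooled, the level was 283 CPM in type 2, with a 95% interval of 280.3 to 286 by the exact Poisson method, and 120.5 CPM in type 1, with one of 118 to 123. These intervals cover counting error only and are far narrower than the spread between neurons. Uqcrq, a small supernumerary subunit, had 561, 480, 333, 317 and 183 CPM in type 2 (6-2, 10-1, 10-3, 9-2, 9-4) and 141, 232, 119, 83.4 and 402 CPM in type 1 (1-1, 1-2, 4-3, 8-2, 9-1), a difference of 1.06 with overlap through 9-4 and 9-1. Among neurons with the first number 9 its difference was -0.74, the opposite direction.

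Uqcrc1 (chr9:108936633-108949623, plus strand) codes for core protein 1, a large matrix-side subunit. It had 563, 987, 1231, 901 and 1273 CPM in type 2 and 613, 196, 749, 544 and 419 CPM in type 1, in the same order of neurons, and differed by 1.05. The 4 higher-depth type 2 neurons exceeded every type 1 neuron, while 6-2, which was highest for most other genes, did not. Its partner core protein 2, Uqcrc2, did not follow: 510, 335, 482.5, 184 and 268.5 CPM in type 2 against 242, 312.5, 317.5, 329 and 491 CPM in type 1 overlapped throughout, with a difference of 0.01. Uqcrb was similar, at 138 ± 115 CPM in type 2 neurons and 123 ± 73.8 CPM in type 1 neurons (difference 0.05). Uqcr10, the highest complex III gene per exon length (401 CPM per kb), averaged 272 ± 121 CPM in type 2 neurons and 197 ± 88.6 CPM in type 1 neurons (difference 0.49). Cyc1, cytochrome c1, and Uqcrfs1, the Rieske iron-sulfur protein, carry the redox centres of the complex encoded in the nucleus, and differed by 0.55 and 0.40.

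Cytochrome c itself, Cycs, was among the most uneven genes. It had 169, 48.1, 4.53, 5.40 and 41.6 CPM in type 2 (6-2, 10-1, 10-3, 9-2, 9-4) and 140.4, 88.97, 15.5, 3.80 and 4.87 CPM in type 1 (1-1, 1-2, 4-3, 8-2, 9-1). Both types ran from under 10 CPM to over 100 CPM, and the difference over all neurons was 0.22. Within the higher depth set it was 1.64 and within the lower 1.51.

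In complex IV, Cox4i1 and Cox6b1 were the only genes of the 38 with every type 2 neuron above every type 1 neuron (background 1.72%, and 1.98% at 100 CPM or more). None had every type 2 neuron below every type 1 neuron (background 0.738%, and 1.44% at 100 CPM or more). Cox4i1 (chr8:120668222-120674207, plus strand), the regulatory subunit that binds adenine nucleotides, had 1211 CPM in 6-2, 1228 in 10-1, 1019 in 10-3, 1010 in 9-2 and 1043 in 9-4, against 583 CPM in 1-1, 737 in 1-2, 569 in 4-3, 466.5 in 8-2 and 787 in 9-1. The type 2 neurons lay close together, at 1102 ± 108 CPM, and those of type 1 at 629 ± 131 CPM, a difference of 0.83, with 0.82 among the higher-depth and 0.95 among the lower-depth libraries.

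Cox6b1 (chr7:30616861-30626151, minus strand), the subunit at the interface of the complex IV dimer, had 918, 542, 514, 768 and 744 CPM in type 2 and 457, 439.5, 459, 166 and 366 CPM in type 1, in the order of neurons used above. The lowest type 2 neuron, 10-3, stood just above the highest type 1 neuron, 4-3, and the difference was 0.94. Cox6a1, at 375 ± 124 CPM in type 2 neurons and 211 ± 88.0 CPM in type 1 neurons, differed by 0.87, and Cox8a, the highest gene per exon length, by 0.79 at 675 ± 295 and 399.6 ± 188 CPM. Cox5a and Cox5b, the matrix-side subunits, differed by 0.38 and 0.14.

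Cox7c was the exception in complex IV, and its direction depended on how the libraries were grouped. It had 155.5 CPM in 6-2, 6.58 in 10-1, 6.35 in 10-3, 9.29 in 9-2 and 12.9 in 9-4 among type 2 neurons, against 75.4 CPM in 1-1, 172 in 1-2, 84.7 in 4-3, 5.54 in 8-2 and 8.03 in 9-1 among type 1 neurons. The high values are those of the 4 lower-depth libraries, whatever their type. Over all neurons the difference between types was -1.15, but within the higher depth set it was 0.30 and within the lower 0.59. The pooled direction did not hold within either depth set.

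In the ATP synthase, the genes of the catalytic head and the stalk shared a direction of the mean difference, but not beyond the spread for each. The difference was below the within-type SD for Atp5a1 (0.27, SD 0.35), Atp5e (0.55, SD 0.63), Atp5f1 (0.57, SD 0.66) and Atp5h (0.52, SD 1.08). Atp5h had 933 CPM in 6-2, while each other type 2 neuron lay below 1-1, 1-2 and 4-3 of type 1. All 5 genes of the F1 head (Atp5a1, Atp5b, Atp5c1, Atp5d and Atp5e, the alpha to epsilon subunits) had the higher mean in type 2, with differences of 0.27 to 0.69 and a median of 0.55. Atp5a1, the alpha subunit and the highest of the complex per exon length, had 1717, 1933, 2334, 1158 and 2012 CPM in type 2 and 1578, 1789, 1029, 1519 and 1631 CPM in type 1, with 9-2 below all type 1 neurons but 4-3. Atp5b, the catalytic beta subunit, averaged 2638 ± 595 CPM in type 2 neurons and 1677 ± 543 CPM in type 1 neurons. All 4 genes of the peripheral stalk, which holds the head still against the turning rotor, were also higher in type 2 (median 0.64). Of these Atp5o, the subunit that tethers the stalk to the head, was furthest apart (0.89), with 827.5, 802.5, 415, 647 and 491 CPM in type 2 and 223, 377, 335, 249 and 560 CPM in type 1, overlapping through 9-1.

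The 3 genes for subunit c, which make the same mature ring protein from different precursors, behaved differently from each other. Atp5g3 (chr2:73908447-73911326, minus strand) had the highest counted level per exon length, at 370 CPM per kb against 22.2 for Atp5g1 and 6.48 for Atp5g2. Atp5g3 had no copy, while the closest copy was 99.8% identical for Atp5g1 and 100% for Atp5g2. Reads may be assigned less completely to the last 2, so this ranking is uncertain. Atp5g3 had 1167, 1133, 930, 842 and 904 CPM in type 2 (6-2, 10-1, 10-3, 9-2, 9-4) and 537, 874, 798, 414 and 473 CPM in type 1 (1-1, 1-2, 4-3, 8-2, 9-1), so that only 9-2 of type 2 lay below the highest type 1 neuron, and differed by 0.73. Atp5g1 (chr11:96068852-96075670, minus strand) had 359, 52.1, 59.7, 28.1 and 47.1 CPM in type 2 and 117, 239.6, 127, 27.9 and 35.6 CPM in type 1. Atp5g2 (chr15:102662864-102672352, minus strand) had 19.4, 0.481, 0.166, 0 and 0.286 CPM in type 2 and 45.6, 16.5, 25.6, 0.359 and 0.223 CPM in type 1. For both, the lower-depth libraries are the high ones. Atp5g1 differed by -0.25 between types over all neurons, yet by 0.50 and 1.23 among the higher-depth and the lower-depth libraries. The Atp5g2 difference of -1.93 over all neurons was -0.08 and -0.45 within them.

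Among the membrane subunits, Atp5l, subunit g at the dimer interface, had the largest difference of all 38 genes and also one of the widest spreads. It had 63.9, 1.95, 132.8, 15.4 and 8.97 CPM in type 2 and 35.5, 6.64, 17.1, 0.574 and 1.88 CPM in type 1. The types overlapped over most of their range, and the difference was 1.50 with a within-type SD of 2.03. With 14 copies, 1 of them identical to its coding sequence, it is also the gene with the most copies. The 19 measured genes outside the naming rule differed by -0.21 to 0.73.

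**Figure D3:**
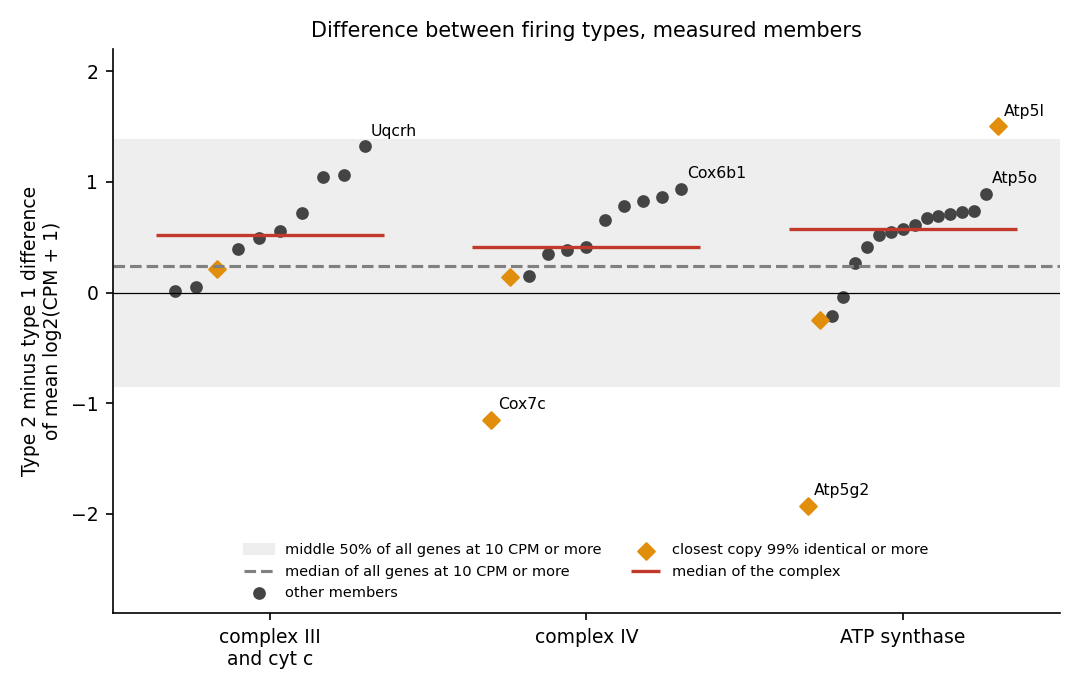
Difference between firing types (type 2 minus type 1, mean log2(CPM + 1)) of each measured gene (points), by complex, with the median of each complex (red line: 0.52, 0.41 and 0.57), the median of all measured genes (dashed line, 0.24) and their middle 50% (grey band). Diamonds are the 6 genes with a copy 99% identical or more, which include the lowest values, Atp5g2 and Cox7c, and the highest, Atp5l.

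In all, 4 of the 38 genes were at least 1 higher in type 2 (Uqcrh, Uqcrq, Uqcrc1 and Atp5l; background 32.1%, and 22.2% at 100 CPM or more) and 2 at least 1 lower (Cox7c and Atp5g2; background 22.3% and 13.6%). Both shares lie below the background, at either level.

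Depth separated several of these genes more clearly than firing type. In the higher depth set minus the lower, 25 of the 38 differences were below 0 (background 46.6%, and 43.7% at 100 CPM or more), with a median of -0.31 against 0.13 over all measured genes, and 10 were at -1 or below (background 24.4% and 15.2%) while none was at 1 or above (background 30.2% and 22.8%). For 6 genes every higher-depth library lay below every lower-depth library (background 1.93%, and 2.72% at 100 CPM or more): Cox7c, Cox5b, Atp5g1, Atp5g2, Atp5h and Atp5mpl. Atp5h and Atp5mpl, a stalk subunit and a small proteolipid of the membrane part, are outside the naming rule and were picked out after their values were seen. No gene had every higher-depth library above every lower-depth library (background 1.82%, and 1.11% at 100 CPM or more).

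Cox7c ran from 5.54 to 12.9 CPM in the 6 higher-depth libraries and from 75.4 to 172 CPM in the 4 lower-depth libraries, a difference of -3.71. Atp5g2 ran from 0 to 0.481 CPM in the higher and from 16.5 to 45.6 CPM in the lower (-4.37), and Atp5g1 from 27.9 to 59.7 and from 117 to 359 CPM (-2.21). Cycs was at -2.77 with overlap, at 3.80 to 48.1 CPM in higher-depth and 15.5 to 169 CPM in lower-depth libraries. The separation was the same in both types for Cox7c and for Atp5g2, though the lower depth set holds a single type 2 neuron. The depth sets overlapped for Cox4i1, which differed by 0.26, for Atp5g3 (-0.15) and for Uqcrc1 (0.80).

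**Figure D4:**
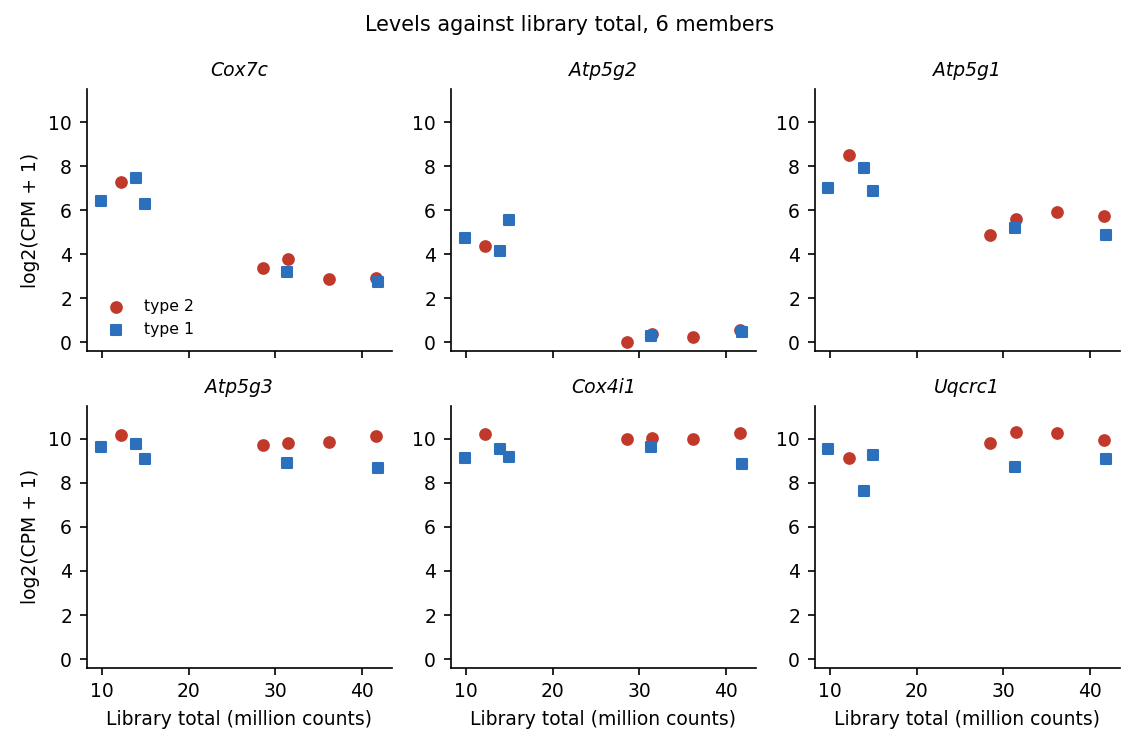
Level, as log2(CPM + 1), of 6 genes in each neuron against the library total, with type 2 as red circles and type 1 as blue squares. In the top row (Cox7c, Atp5g2, Atp5g1) the 6 libraries above 20000000 counts lie below the 4 others, and in the bottom row (Atp5g3, Cox4i1, Uqcrc1) they do not.

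Within the 6 higher-depth libraries alone, the mean level of the 38 genes had a Pearson r of -0.42 and a Spearman rho of -0.26 with the library total, given as a description over 6 neurons. No correlation is given over all 10, since the totals form separate clusters. The first numbers of the neuron names also divide this way (1, 4 and 6 in the lower set, 8, 9 and 10 in the higher), so depth cannot be told apart from whatever those numbers stand for.

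The size of the depth difference went with the presence of near-identical copies. The 6 genes whose closest copy was 99% identical or more (Cox7c, Atp5g2, Cycs, Atp5l, Atp5g1 and Cox5b) had a median difference of -2.49 and all lay at -1.42 or below. The median was -0.46 over the 10 genes with a closest copy of 95 to 99%, 0.05 over the 6 with one of 90 to 95%, and -0.08 over the 16 measured genes with none. These identity classes were chosen after the values were seen. Over the 22 genes with a copy, identity and depth difference had a Spearman rho of -0.72 and a Pearson r of -0.64, as a description across genes of the same libraries. Coding length went the other way more weakly (rho 0.49 and r 0.37 over 38 genes), and no gene with 4 or more copies had over 483 coding bases. Atp5mpl, with no copy and 174 coding bases, was at -1.40, and Uqcr11, with a copy 98.8% identical, at 0.11, so neither class was uniform. Whether the handling of reads that match several places differed between the depth sets was not tested.

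**Figure D5:**
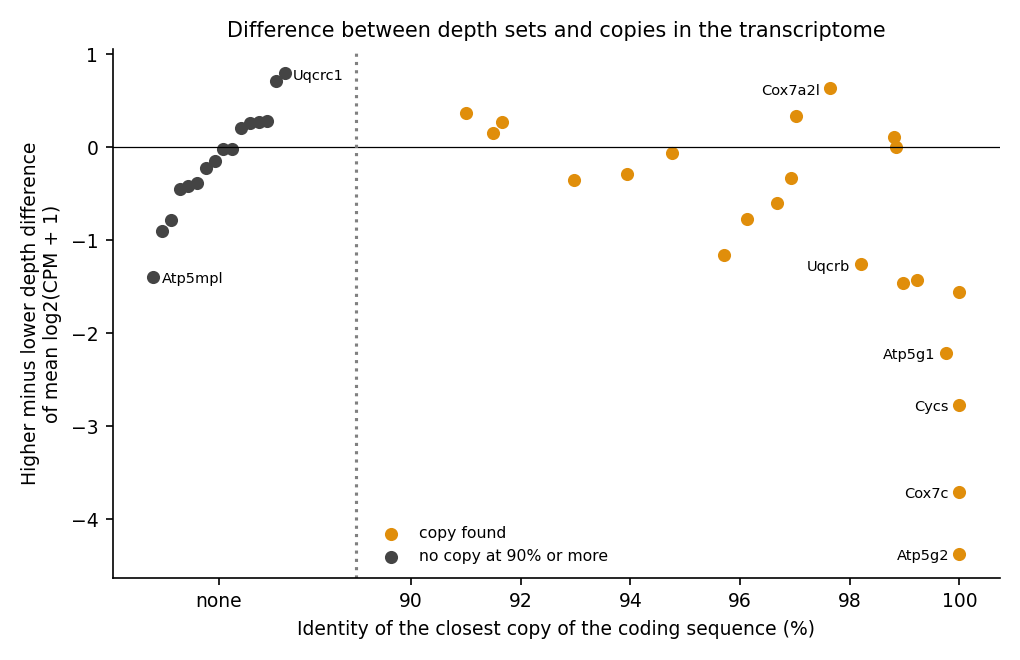
Higher minus lower depth difference of mean log2(CPM + 1) for the 38 measured genes against the identity (percent) of the closest copy of their coding sequence. Genes without a copy are at the left, in order of their difference, between -1.40 (Atp5mpl) and 0.80 (Uqcrc1), and the points fall to -4.37 (Atp5g2) at 100% identity.

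Copies were also set beside the difference between firing types. The 22 genes with a copy had a median type 2 minus type 1 difference of 0.51 (19 of 22 higher in type 2). The 16 measured genes without a copy had one of 0.60 (14 of 16). Among those with a copy, the 6 whose closest copy was 99% identical or more had a median of -0.05 (3 of 6). The mean log2 level of the genes without a copy was 9.04 ± 0.25 in type 2 and 8.52 ± 0.30 in type 1 neurons (SD, n = 5 each). Every type 2 neuron (8.80 or more) was narrowly above every type 1 neuron (8.77 or less). The same mean over all measured respiratory genes overlapped, at 7.54 to 8.83 in type 2 and 6.65 to 8.05 in type 1 neurons. Leaving out genes with near-identical copies was added after the data were seen. How often other gene sets separate the types in this way was not tested.

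Across neurons, the genes varied together to different degrees. The median Pearson r over the 703 pairs of measured genes was 0.43, within complex IV 0.59, within complex III with cytochrome c 0.34 and within the ATP synthase 0.30. Against the mean of the other measured genes, r was above 0.5 for 26 of 38 genes. It was highest for Atp5k (0.96), subunit e of the membrane part, and near or below 0 for Atp5b (-0.01) and Uqcrc1 (-0.13). These are descriptions over 10 neurons, and all genes come from the same libraries, which differ in type and depth set. The median over the 120 pairs of genes without a copy was lower, at 0.31.

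Other lists of mitochondrial genes were compared by the same measure, with 56.4% of all measured genes higher in type 2 and a median of 0.24. For complex I, the entry point for electrons from NADH, 38 genes were listed by symbol (starting with Nduf but not Ndufaf). Membership was not checked gene by gene, also not for the listed Ndufa4 and Ndufa4l2. Of the 38, 37 were measured and 32 were higher in type 2 (median 0.59). Ndufv1, the subunit that binds NADH, averaged 404 ± 122 CPM over type 2 and 206 ± 130 CPM over type 1 neurons, and Ndufa9 averaged 226.5 ± 82.9 CPM over type 2 and 134 ± 97.2 CPM over type 1 neurons. All 4 genes of complex II, succinate dehydrogenase, were higher in type 2 (median 0.34), Sdha by 0.75 and Sdhc by 0.43. Of 34 listed assembly factors of complexes III, IV and the ATP synthase, 25 were measured and 20 were higher in type 2 (median 0.76). Bcs1l, which inserts the Rieske protein into complex III, was detected in 5 of 5 type 2 and 2 of 5 type 1 neurons, and Uqcc3, an assembly factor of complex III, in 4 of 5 type 2 and 1 of 5 type 1 neurons.

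Regulators of mitochondrial genes were uneven in direction and between neurons. Of 16 listed, 11 were measured, 7 of them higher in type 2 and 4 lower, with differences from -1.92 to 2.73 and a median of 1.36. The furthest apart were the related coactivators Pprc1 (2.73), with 57.2 ± 45.6 CPM over type 2 and 22.3 ± 32.05 CPM over type 1 neurons, and Ppargc1a (2.40), with 97.6 ± 92.2 CPM over type 2 and 24.7 ± 48.3 CPM over type 1 neurons. Of 12 genes of mitochondrial carriers, channels and supply, all were measured and 10 were higher in type 2 with a median of 0.36.

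Nuclear respiratory factor 1 (NRF1) is a transcription factor known to bind promoters of many respiratory genes. Its core, GCGCA and GCGC with any base between them, was searched on both strands of the promoters in the RefSeq table (GRCm38.p6, 250 bases before to 50 after the start), which held 30 of the 38 measured genes, 2 of the 34 matched genes under an older symbol. It was found in 8 of the 30 (26.7%: Atp5c1, Atp5g2, Atp5g3, Atp5h, Atp5k, Atp5o, Cox6a1 and Uqcrc1), and in 7.17% of the 17492 promoters of coding genes in the table. Starts here are those of the RefSeq table. The Atp5g2 window below lies inside the GENCODE span of its gene, and the Atp5k window partly inside that of its own. The following windows, with the core in capitals, show it 162 bases before the start of Cox6a1 (chr5:115349096-115349135, minus strand), 50 before that of Atp5k (chr5:108434425-108434464, minus strand) and 42 before that of Atp5g2 (chr15:102671065-102671104, minus strand), genes on either side of the depth split above.
Cox6a1: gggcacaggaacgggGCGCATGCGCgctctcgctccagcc
Atp5k: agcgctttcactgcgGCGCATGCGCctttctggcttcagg
Atp5g2: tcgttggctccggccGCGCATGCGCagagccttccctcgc
The core of GABP, CCGGAAGT, was found in 4 of the 30 (13.3%, against 5.69% of coding promoters) and that of YY1, AAGATGGC, in 3 (10.0%, against 3.57%). Matches are descriptions of letters in a window, and binding was not measured.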

How the data were processed

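The deposited values were raw gene counts, 1 table per neuron, as whole numbers with no normalization, per the file headers. Per the submitters' processing notes, cutadapt 1.13, STAR, HTSeq 0.6.1p1 and DESeq2 were used with mm10; the order of steps, annotation, strand option and treatment of multiply mapped reads are not stated in the sources used here. CPM was computed from the summed gene counts of each library, and levels are log2(CPM + 1). At 3 counts the floor was 0.0717 CPM in the deepest and 0.306 CPM in the shallowest library. Groups came from the firing type in the labels. As no animal is named, no model or test was run, and SDs measure spread between cells only. Intervals on pooled levels are exact Poisson 95% intervals and cover counting error only.

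Genes were matched by identifier to GENCODE M21 (GRCm38). Copies were found with BLAST 2.17.0 by aligning each gene's coding sequence to the transcripts of all other genes. Named genes were, per complex, the 3 largest and 2 smallest differences among measured genes and the highest per exon length, with the subunit c genes, the tissue isoforms and the genes undetected in a neuron despite a median of 10 CPM or more; from the lists of complex I, complex II, assembly factors and regulators, the 2 furthest apart. Genes and lists were chosen with earlier results of these data known. Alternatives were other pseudocounts, filters and scalings (TMM of edgeR 4.0.16, size factors of DESeq2 1.42.0 in R 4.3.3), thinning, and subsets of neurons or genes; leaving out genes with near-identical copies was added after seeing the data. Python 3.11.15, numpy 2.4.6, pandas 2.3.3 and scipy 1.17.1 were used, and the calculation was tested on simulated counts.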

Additional observations from a re-analysis of the deposited data

Results flagged for a closer look

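In groups of 5 neurons, 8 of the 46 sets of values checked had a single neuron far from the other 4 by Dixon's criterion (gap over range above 0.71). That limit marks about 1 in 20 sets of independent, normally distributed values. The sets here are CPM values of the same neurons, so the count cannot be set against that rate. In 7 of the 8 flagged sets the neuron was 6-2, the only type 2 neuron of the lower depth set. It stood above the other type 2 neurons for Atp5g1 (359 CPM), Atp5g2 (19.4 CPM), Cox5b (525.5 CPM), Cox7c (155.5 CPM), Cycs (169 CPM), Uqcrb (337 CPM) and Uqcrh (793 CPM). For the 4 of these in which every lower-depth library is high (Atp5g1, Atp5g2, Cox5b and Cox7c), the type 1 neurons 1-1, 1-2 and 4-3 were high too. The last was the summed level of complex III and cytochrome c in 8-2 among type 1 neurons, at 1673 CPM against 2336 CPM or more in the other 4.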

How the results depend on the processing

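The median difference over the measured genes stayed above 0 under every alternative run, from 0.27 (without 6-2, 9-2 and 9-4) to 0.94 (totals under 20000000), and from 0.36 to 0.67 when leaving out each neuron in turn. Its excess over the median of all measured genes, 0.31 in the main result, depended more on the setting. The excess was 0.0067 without 8-2, 0.13 with a pseudocount of 0.1 and 0.14 with the first number 9 alone. By the ratio of mean CPM it was 0.58, and with totals over 20000000 it was 0.61. When a neuron was left out, the number higher in type 2 ran from 28 to 34 of 38 and the number at least 1 apart from 4 to 8. By complex, leaving out each neuron gave 0.35 to 0.72 for complex III and cytochrome c, 0.34 to 0.55 for complex IV, 0.32 to 0.67 for the ATP synthase, and 0.46 to 0.64 for the summed level. Against 6 genes at least 1 apart over all neurons, a pseudocount of 10 gave 3, the ratio of mean CPM 3, totals over 20000000 11 and under 20000000 18, genes without copies or shared exon bases 1 (with 10 of these 12 higher in type 2), and genes whose closest copy is under 99% identical 3. The summed level differed by 0.87 in the libraries under 20000000. Among named genes at least 1 apart over all neurons, those that turned direction were Uqcrq with the first number 9 alone (-0.74) and Cox7c with the first number 9 alone (0.41), over 20000000 (0.30) and under 20000000 (0.59). Another 9 named genes, all under 1 apart, changed sign under at least 1 alternative: leaving out neurons gave -0.35 to 0.32 for Uqcrb, -0.14 to 0.23 for Uqcrc2, -0.29 to 0.36 for Cox5b, -0.46 to 0.88 for Cycs and -0.84 to 0.14 for Atp5g1, and the rest were Uqcr10, Atp5a1, Cox6b2 and Cox7a1. The cause was not tested, apart from the smaller sets of genes or neurons. TMM scaling shifted the median of all measured genes to 0.44 and size factors to 0.32, with the respiratory genes at 0.77 and 0.64. No paired analysis was possible because the types share no replicate names and the result comes from no test. Depth limits detection to the floors given, and taking the depth sets apart ended the differences of 1 or more of Cox7c and of Atp5g2 (-0.08 over and -0.45 under 20000000).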

Other observations

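Cytosolic ribosomal protein genes, known as short, abundant and rich in pseudogenes, were looked at after the depth split of the respiratory genes was seen. No copies were searched for them, so a link between copies and their depth difference was not tested. Of 79 measured ribosomal genes, 45 had every higher-depth library below every lower-depth library (background 1.93%), with a median higher minus lower depth difference of -1.82 over the 79, while their type 2 minus type 1 difference had a median of -0.13. The list for complex I, with 37 measured genes, had 1 such gene and a median depth difference of -0.14.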
